A study of Mus musculus with 9 samples.

Results

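The genes of the solute carrier families Slc1, Slc3, Slc6, Slc7, Slc36, Slc38 and Slc43, which hold most of the amino acid transporters of mammalian membranes, were examined in mouse liver after a high-fat diet. A gene was taken as a member when its symbol in the array's annotation was one of these family names followed by the letter a and a number, on a probe set paired with exactly 1 symbol. This gave 57 of the 17514 genes tested, carried by 109 of 32801 named probe sets. By family there were 7 Slc1, 2 Slc3, 17 Slc6, 15 Slc7, 4 Slc36, 9 Slc38 and 3 Slc43 genes.

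Liver RNA came from c57Bl/6 mice on a high-fat diet (HFD, 5 arrays; 21% fat, with 42% of calories from fat) or on the diet labelled control (4 arrays), and all animals had chow before the study. The labels give neither the composition of the control diet nor sex, age or time on diet, and whether every array stands for its own animal is not stated. The p-values therefore cover the spread among these 9 arrays only, and that spread may be technical. The deposited values had been centred, so that each is the log2 distance of an array from its probe set's baseline, which was not the median of these 9 arrays alone. Levels were removed by that step, so that the order of the transporters by abundance, and whether a gene was expressed in liver at all, cannot be read, and the tissue could not be checked by the level of its defining markers. Differences are in log2 units, HFD minus control, ± the standard error from limma, and a gene was past the threshold at a Benjamini-Hochberg adjusted p under 0.05 over all genes. Replicates are numbered here in the order of the samples within each group, because the labels give no replicate numbers. The SD over probe sets was 0.340 for HFD replicate 5 and between 0.222 and 0.274 for the other arrays. HFD replicates 3 and 5 were the most alike of all arrays (Pearson's r = 0.53 over 32801 probe sets, which share the baseline). HFD replicates 1 and 2 came next (r = 0.49), and between these 2 pairs r ran from -0.09 to 0.19. Results that end without HFD replicate 3, HFD replicate 5 or both are given with the value. No fit left out HFD replicates 1 and 2 together.

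Amino acid transporters work in functional layers. Sodium-coupled carriers of the Slc1, Slc6 and Slc38 families concentrate amino acids in the cell, exchangers of the Slc7 family trade one amino acid for another and mostly need a heavy subunit from the Slc3 family to reach the membrane, and the Slc36 and Slc43 families hold proton-coupled and facilitative carriers. In liver these carriers supply substrates for protein synthesis, gluconeogenesis and urea formation, and several are known to be induced by the transcription factor ATF4 when amino acids are scarce.

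Most of the transporters differed little between the diets. Of the 57 members 3 were past the threshold, Slc3a1 and Slc7a7 lower and Slc38a7 higher in HFD, which is 5.26% beside 5.24% of all genes. By direction the 1 higher member stood beside 3.37% of all genes called higher, and the 2 lower members beside 1.87% called lower. The difference was under 0.25 on the log2 scale, in either direction, in 43 members (75.4%, against 75.1% of all genes), and its median was -0.03 over the members and -0.02 over all genes. An unadjusted p under 0.05 was reached by 12 members, 3 higher and 9 lower, that is 21.1% beside 19.1% of all genes. By direction these were 15.8% of members lower beside 8.78% of all genes, and 5.26% of members higher beside 10.3% of all genes. The sign was negative in 36 members (63.2%, against 53.8% of all genes). The 9 lower members became 5 without HFD replicate 2 and 5 without control replicate 3, and were between 5 and 11 over all alternatives.

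By family, 1 of 2 Slc3 genes, 1 of 15 Slc7 genes and 1 of 9 Slc38 genes passed. None of the 7 Slc1, 17 Slc6, 4 Slc36 and 3 Slc43 genes passed in limma, where unadjusted p-values under 0.05 numbered 3 in Slc1 and 1 in each of the others. The median difference was -0.02 in Slc1, 0.00 in Slc6, -0.07 in Slc7, -0.16 in Slc36, -0.04 in Slc38 and -0.37 in Slc43. The Slc6 family, which includes the carriers of neurotransmitters, had the largest share of genes under 0.25, with 16 of 17, beside 13 of 15 in Slc7. The median absolute difference was nearly the same in both, 0.072 in Slc6 and 0.074 in Slc7.

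**Figure D1:**
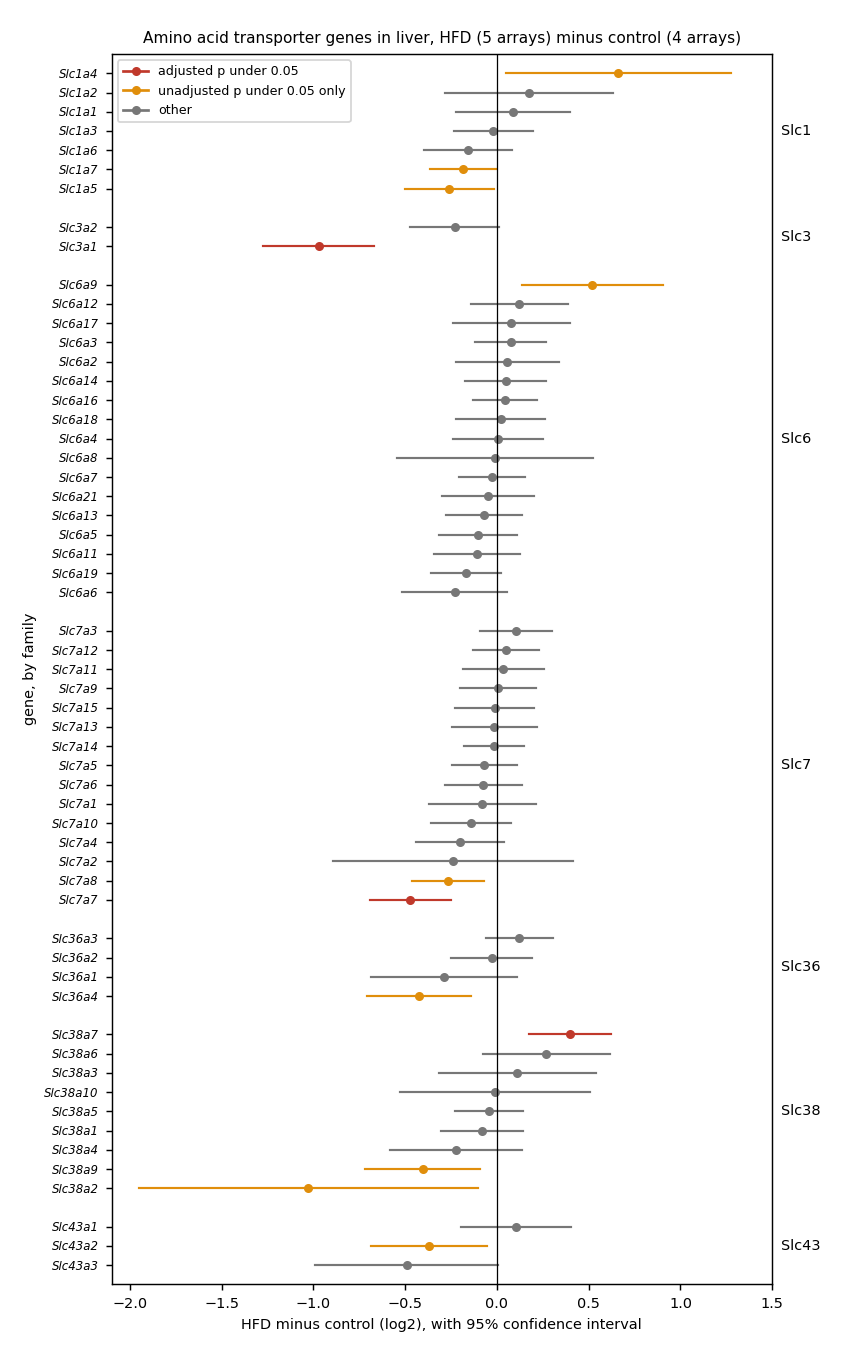
Difference HFD minus control (log2, horizontal axis) of the 57 transporter genes, by family and in order of size within it, with 95% confidence intervals from limma (5 HFD and 4 control arrays). Slc3a1 (-0.97), Slc7a7 (-0.47) and Slc38a7 (0.40) are past the adjusted threshold, and most other intervals include 0.

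The upstream sequences of the 3 transporters past the threshold are shown because these were the members called, at a share (5.26%) near that of all genes (5.24%). Each run is the 250 bases before the gene's start in RefSeq (build GRCm38.p6), 5′ to 3′ on the gene's own strand, and for Slc7a7, which has 5 listed starts, before the one listed first. Capitals mark matches to the motifs searched, and promoters were found for 41 of the 57 members.
Slc3a1, chr17:85028097-85028346, plus strand: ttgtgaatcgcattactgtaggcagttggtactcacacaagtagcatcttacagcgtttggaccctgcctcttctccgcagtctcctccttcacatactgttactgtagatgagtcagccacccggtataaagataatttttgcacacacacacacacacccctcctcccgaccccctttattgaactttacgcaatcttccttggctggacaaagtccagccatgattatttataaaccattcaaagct
Slc7a7, chr14:54417945-54418194, minus strand: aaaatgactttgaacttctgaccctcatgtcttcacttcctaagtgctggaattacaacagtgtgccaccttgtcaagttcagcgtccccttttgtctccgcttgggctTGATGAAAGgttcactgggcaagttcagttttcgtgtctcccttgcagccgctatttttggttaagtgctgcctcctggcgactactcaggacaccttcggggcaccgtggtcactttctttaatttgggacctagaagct
Slc38a7, chr8:95853492-95853741, minus strand: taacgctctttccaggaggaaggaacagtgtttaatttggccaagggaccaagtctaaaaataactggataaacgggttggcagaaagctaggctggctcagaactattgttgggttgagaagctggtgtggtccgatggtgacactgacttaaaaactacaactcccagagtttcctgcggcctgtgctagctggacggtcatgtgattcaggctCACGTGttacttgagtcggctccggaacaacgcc

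These windows were searched on both strands for the ATF4-C/EBP element TGATGNAAN, the E-box CACGTG bound by USF factors and the antioxidant response element TGACNNNGC, which do not overlap each other in the windows shown. The Slc7a7 window held 1 ATF4-C/EBP match, TGATGAAAG, 141 bases before the start, and the window of its second listed start held another, TGATGCAAC. The windows of its listed starts 3, 4 and 5 held none of the motifs. Slc7a7 thus had 5 windows searched, against 1 each for Slc3a1 and Slc38a7. The Slc38a7 window held 1 E-box, 34 bases before the start, and the Slc3a1 window held none of the 3 motifs. Over all 32851 windows of the same length, 3.44% held the ATF4-C/EBP element, 6.02% the E-box and 10.2% the antioxidant response element. A match describes letters only.

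The largest difference past the threshold was that of a heavy subunit. Slc3a1 encodes the heavy subunit that pairs with Slc7a9 to exchange cystine and dibasic amino acids, a complex best known from the kidney, where its loss causes cystinuria. On its only probe set it stood at -0.25, -0.03, -0.23, -0.21 and -0.71 in HFD replicates 1 to 5, against 0.75, 0.87, 0.63 and 0.48 in control replicates 1 to 4. All HFD arrays lay below all control arrays, and HFD replicate 5 was the lowest. The difference was -0.97 ± 0.14 (1.96-fold lower, adjusted p = 0.00419 in limma), with means of -0.29 ± 0.25 in HFD (SD, n = 5) and 0.68 ± 0.17 in control (SD, n = 4). It was past the threshold in all 19 alternative fits run, including each fit without 1 array.

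Slc3a2, the heavy subunit known as the CD98 heavy chain, which carries most other Slc7 exchangers, differed by -0.23 ± 0.11 (adjusted p = 0.292), and its arrays overlapped. Its values ran between -0.37 and 0.04 in HFD and between -0.02 and 0.15 in control. Slc7a9, the light subunit of Slc3a1, differed by 0.00 ± 0.09, with a 95% interval from -0.20 to 0.21 that includes 0. Slc7a13, which also pairs with Slc3a1 in mouse kidney, differed by -0.01 ± 0.10. The interval of Slc3a1 itself ran from -1.27 to -0.67 and did not reach those of either light subunit.

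Among the light subunits that pair with Slc3a2, Slc7a7 fell. Its product exchanges intracellular dibasic amino acids such as arginine and lysine for neutral ones, and is known from epithelia and macrophages. The gene stood at -0.08, -0.37, -0.19, -0.03 and -0.19 in HFD replicates 1 to 5, against 0.12, 0.47, 0.33 and 0.29 in control replicates 1 to 4. The groups did not overlap, although HFD replicate 4 and control replicate 1 were close. The difference was -0.47 ± 0.10 (1.39-fold lower, adjusted p = 0.0234 in limma). The other of its 2 probe sets differed by -0.24 and did not pass. The call ended without HFD replicate 3, or without control replicate 2, 3 or 4 (adjusted p between 0.0569 and 0.0826), and without HFD replicates 3 and 5 together (adjusted p = 0.0733), while the difference stayed between -0.48 and -0.42.

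Markers of Kupffer cells, the macrophages of the liver, were lower in HFD as well. Of the 10 listed markers measured, 7 fell and none rose, and all 10 were lower at an unadjusted p under 0.05. Over all genes 1.87% were called lower and 3.37% higher. At an unadjusted p under 0.05, 8.78% of all genes were lower and 10.3% higher. The mean of the Kupffer cell list stood at -0.34, -0.72, -0.50, 0.14 and -1.32 in HFD replicates 1 to 5, against 1.00, 1.39, 0.80 and 0.14 in control replicates 1 to 4. Control replicate 2 was highest in both this mean and Slc7a7, whereas the lowest array was HFD replicate 5 in the mean and HFD replicate 2 in Slc7a7. Of 9 endothelial markers 2 fell and 8 were lower at an unadjusted p under 0.05, and the mean of that list ran between -1.21 and 0.27 in HFD and between 0.16 and 0.72 in control. The part of these cells in the difference of Slc7a7 was not tested. In bulk liver RNA, fewer cells of a type and less RNA per cell cannot be told apart. Of the other lists of cell types measured, hepatocyte genes had 1 of 9 lower, stellate cell genes 1 of 7 higher and 1 lower, and neutrophil genes 1 of 4 lower. At an unadjusted p under 0.05 these were 4 lower and 1 higher, 2 lower and 1 higher, and 3 lower. In the lists for cholangiocytes (4), lymphocytes (6), erythroid cells (3) and pancreatic acinar cells (5), limma called none, with an unadjusted p under 0.05 for 1 lymphocyte and 1 erythroid gene.

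**Figure D2:**
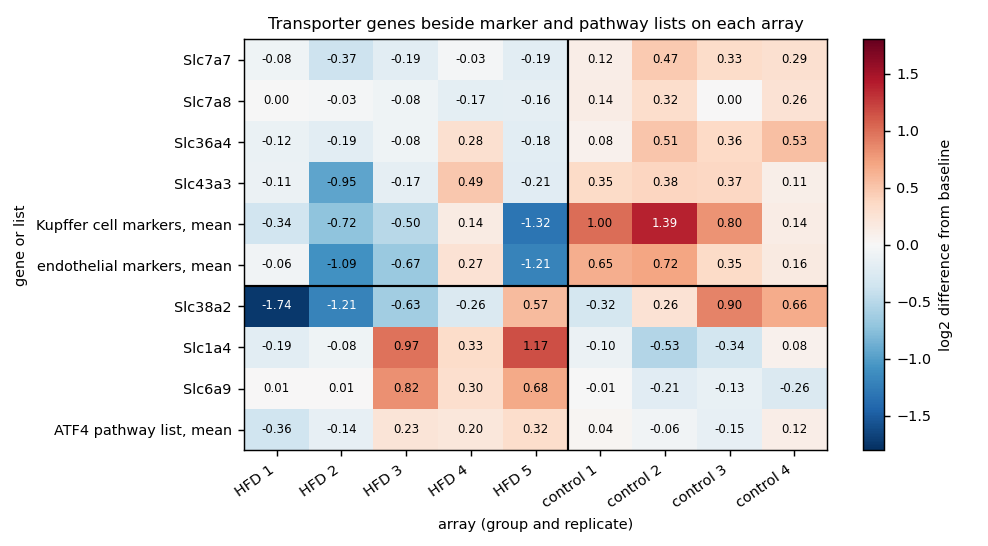
Values on each array (columns, HFD replicates left of control replicates) of transporter genes and of list means, as log2 differences from baseline. Above the horizontal line are Slc7a7, Slc7a8, Slc36a4 and Slc43a3 with the Kupffer cell and endothelial marker means. Below it are Slc38a2, Slc1a4 and Slc6a9 with the ATF4 list mean, where HFD replicates 1 and 2 stand lower than HFD replicates 3, 4 and 5. The transporters shown are a selection made by no stated rule, and a link to the lists was not tested. Slc1a5, not shown, was highest among HFD arrays on replicate 1 (0.05), and Slc7a5 ran between -0.12 and 0.01 in HFD. The ATF4 list mean on HFD replicate 1 was set mostly by Atf3, Ddit4 and Cebpb.

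Slc7a8, a light subunit for neutral amino acids, was also low in each HFD array, between -0.17 and 0.00, against 0.14, 0.32, 0.00 and 0.26 in control replicates 1 to 4. HFD replicate 1 and control replicate 3 were almost equal, and the difference of -0.27 ± 0.09 did not pass (adjusted p = 0.122). The other light subunits of Slc3a2 were flatter. Slc7a5, the large neutral amino acid exchanger, differed by -0.07 ± 0.08 and Slc7a6, a relative of Slc7a7, by -0.07 ± 0.09. Slc7a11, the cystine and glutamate exchanger that feeds glutathione synthesis, differed by 0.03 ± 0.10, with a 95% interval from -0.19 to 0.26. Its other probe set differed by -0.09, so that the sign depended on the probe set.

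The cationic amino acid transporters of the Slc7 family need no heavy subunit. Slc7a2, the form known from hepatocytes, differed by -0.24 ± 0.30 with a wide spread in both groups, between -0.41 and 0.81 in HFD and between -0.30 and 0.95 in control. Its 4 probe sets disagreed, 3 lower (lowest -0.31) and 1 higher (0.44), and none passed. Slc7a1, the ubiquitous form, differed by -0.08 ± 0.13 and Slc7a4, a relative whose transport activity is uncertain, by -0.20 ± 0.11. Slc7a3 (0.11 ± 0.09) and Slc7a14 (-0.02 ± 0.07), known mainly from nervous tissue, did not pass either.

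In the Slc38 family of sodium-coupled neutral amino acid transporters, Slc38a7 rose. Its product moves glutamine and asparagine and is known from the lysosomal membrane of human cells. The gene stood at 0.22, -0.03, 0.29, 0.06 and 0.30 in HFD replicates 1 to 5, against -0.13, -0.42, -0.21 and -0.15 in control replicates 1 to 4. No HFD array lay among the control arrays, but HFD replicate 2 and control replicate 1 were close. The difference of 0.40 ± 0.10 (1.32-fold) was just inside the threshold (adjusted p = 0.0498 in limma), and the next member, Slc36a4, was outside it (adjusted p = 0.0900). The call ended without any 1 array other than HFD replicate 2 (highest adjusted p = 0.153, without control replicate 2) and after subtraction of array medians (adjusted p = 0.0507), with differences between 0.33 and 0.44 over the fits without 1 array, and also without HFD replicates 3 and 5 together (0.31, adjusted p = 0.154). It had 1 probe set.

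Slc38a9, a lysosomal membrane protein through which arginine is sensed for mTORC1, the kinase complex that couples amino acids to growth, differed by -0.41 ± 0.14 (adjusted p = 0.144). It stood at -0.08, 0.06, -0.63, -0.13 and -0.28 in HFD replicates 1 to 5, against 0.11, 0.34, 0.34 and -0.02 in control replicates 1 to 4. The groups overlapped at HFD replicate 2 and control replicate 4. Of its 7 probe sets 4 were lower and 3 higher, between -0.41 and 0.14, and none passed.

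Slc38a2 had the largest difference of the 57 members and the largest SD over HFD arrays. It encodes a carrier of alanine, glutamine and other small neutral amino acids that is induced when amino acids are withdrawn. The gene stood at -1.74, -1.21, -0.63, -0.26 and 0.57 in HFD replicates 1 to 5, against -0.32, 0.26, 0.90 and 0.66 in control replicates 1 to 4. HFD replicate 5 lay among the control arrays, and the SD was 0.89 in HFD (n = 5) and 0.53 in control (n = 4), where the median SD over all genes was 0.180 and 0.143. The difference of -1.03 ± 0.42 did not pass (adjusted p = 0.208), and under array weights it did (-1.37, adjusted p = 0.0475). The other 2 probe sets of the gene differed by -0.29 and 0.06.

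The carriers of this family best known from hepatocytes were not past the threshold. Slc38a3, which takes up and releases glutamine, differed by 0.11 ± 0.19 and stood between -0.38 and 0.50 in HFD and between -0.34 and 0.28 in control. Slc38a4, a carrier rich in liver, differed by -0.22 ± 0.16 (adjusted p = 0.517), and both of its probe sets were lower. For each the interval included 0, from -0.32 to 0.54 for Slc38a3 and from -0.58 to 0.14 for Slc38a4. Slc38a1 (-0.08 ± 0.10), Slc38a5 (-0.04 ± 0.08), Slc38a6 (0.27 ± 0.16) and Slc38a10 (-0.01 ± 0.23) did not pass. The values of Slc38a10 were between -0.82 and 0.45 in HFD and between -0.21 and 0.11 in control. Its 7 probe sets, 5 higher and 2 lower, differed by between -0.13 and 0.27, and none passed.

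**Figure D3:**
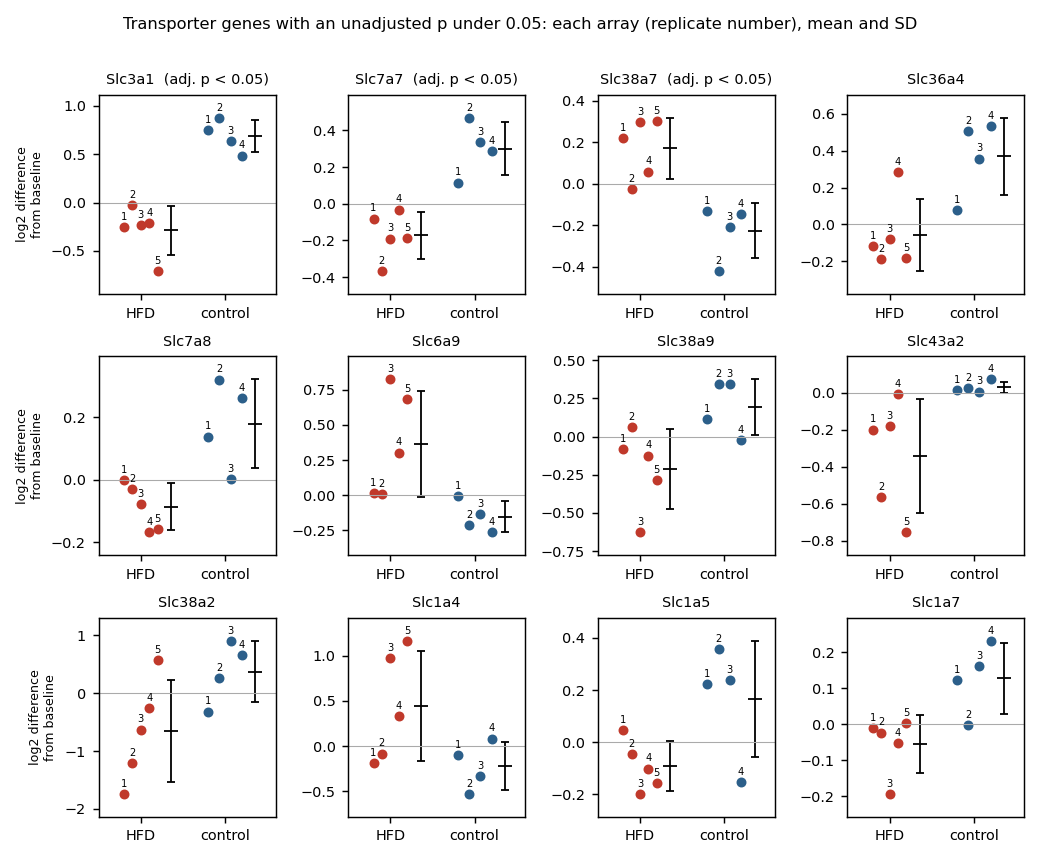
Log2 differences from baseline on each array (points, numbered by replicate) for the 12 transporter genes with an unadjusted p under 0.05, with the mean and SD of each group (5 HFD and 4 control arrays). The arrays of Slc3a1, Slc7a7, Slc38a7, Slc7a8, Slc6a9 and Slc43a2 do not overlap between the groups, and those of the other genes do.

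The neutral amino acid carriers of the Slc1 family had differences of opposite sign, neither of them past the threshold. Slc1a4, a carrier of alanine, serine and cysteine, stood at -0.19, -0.08, 0.97, 0.33 and 1.17 in HFD replicates 1 to 5, against -0.10, -0.53, -0.34 and 0.08 in control replicates 1 to 4. HFD replicates 1 and 2 lay among the control arrays and the other HFD arrays above them, so that the difference of 0.66 ± 0.28 did not pass (adjusted p = 0.225). All 3 probe sets of Slc1a4 were higher, between 0.43 and 0.66. Without HFD replicates 3 and 5 together its difference was 0.24 (adjusted p = 0.518). Slc1a5, its relative and a main glutamine carrier of growing cells, differed by -0.26 ± 0.11 (adjusted p = 0.234), between -0.20 and 0.05 in HFD and between -0.15 and 0.36 in control. The other probe set of Slc1a5 differed by -0.07.

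The glutamate transporters of the same family were flat or passed only unadjusted. Slc1a2, which clears glutamate in brain and in liver marks the hepatocytes around the central vein, differed by 0.18 ± 0.21 with a 95% interval from -0.28 to 0.63. Of its 5 probe sets 3 were higher and 2 lower. Other genes of pericentral hepatocytes were mostly higher in HFD. Of 11 measured 9 had a positive difference, and 2 rose and 1 fell (beside 3.37% and 1.87% of all genes). At an unadjusted p under 0.05, 6 were higher and 1 lower (beside 10.3% and 8.78% of all genes). Rhbg, an ammonium transporter, rose by 0.79 ± 0.16 and Lgr5, a receptor of Wnt signalling, by 1.08 ± 0.25, and Cyp1a2, a cytochrome P450, fell by 1.53 ± 0.18. Tbx3, a transcription factor (1.47 ± 0.40), Oat, the ornithine aminotransferase (0.65 ± 0.19), and Lect2, a secreted hepatocyte protein (0.57 ± 0.15), did not pass. The mean of the list ran between 0.03 and 0.30 in HFD and between -0.26 and 0.00 in control, without overlap. HFD replicate 4 (0.03) and control replicate 1 (0.00) were close, and a mean without any 1 of the genes was not computed. Of 9 periportal genes Cdh1, which encodes E-cadherin, fell by 1.78 ± 0.22 and no other passed, while 5 were lower and none higher at an unadjusted p under 0.05, among them Hal, the histidine ammonia-lyase (-0.66 ± 0.19), and Pck1, an enzyme of gluconeogenesis (-1.41 ± 0.46). By sign 6 of the 9 periportal genes were lower and 3 higher, Ass1 among the latter (0.59 ± 0.42, not past the threshold). The mean of the periportal list ran between -0.46 and 0.07 in HFD and between 0.18 and 0.30 in control, also without overlap. Cdh1 was the only gene of that list whose arrays did not overlap, and it had the largest difference. The separation of the mean therefore leans on Cdh1, and a mean without it was not computed. Slc1a7, a glutamate transporter known from retina, differed by -0.18 ± 0.08 (adjusted p = 0.253), and Slc1a1 (0.09 ± 0.14), Slc1a3 (-0.02 ± 0.10) and Slc1a6 (-0.16 ± 0.11) did not pass.

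Among the sodium- and chloride-coupled Slc6 carriers the largest difference was that of Slc6a9, a glycine transporter. It stood at 0.01, 0.01, 0.82, 0.30 and 0.68 in HFD replicates 1 to 5, against -0.01, -0.21, -0.13 and -0.26 in control replicates 1 to 4. The groups did not overlap, but HFD replicates 1 and 2 and control replicate 1 were nearly equal. The difference of 0.52 ± 0.17 did not pass (adjusted p = 0.124), and the second probe set differed by 0.25. Without HFD replicates 3 and 5 together it was 0.26 (adjusted p = 0.240). On HFD replicates 3 and 5 both Slc6a9 and Slc1a4 had their highest values.

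The other Slc6 carriers with known roles in liver did not pass. Slc6a6, the taurine transporter, differed by -0.23 ± 0.13 (adjusted p = 0.377), while its other 3 probe sets were between 0.01 and 0.15, so that no direction can be given. Slc6a13, which carries GABA and taurine in mouse hepatocytes, differed by -0.07 ± 0.09 with a 95% interval from -0.28 to 0.13. Slc6a12, the betaine carrier, differed by 0.12 ± 0.12, Slc6a8, the creatine carrier, by -0.01 ± 0.24, and Slc6a19, a carrier of neutral amino acids in kidney and gut, by -0.17 ± 0.09. The remaining 11 members of the family, which include the monoamine transporters Slc6a2, Slc6a3 and Slc6a4, differed by between -0.11 and 0.08.

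In the small families of proton-coupled and facilitative carriers, Slc36a4 and Slc43a2 had the lowest p. Slc36a4, whose human product is a high-affinity carrier of proline and tryptophan, stood at -0.12, -0.19, -0.08, 0.28 and -0.18 in HFD replicates 1 to 5, against 0.08, 0.51, 0.36 and 0.53 in control replicates 1 to 4. HFD replicate 4 lay among the control arrays, and the difference was -0.43 ± 0.13 (adjusted p = 0.0900), or -0.51 without that array (adjusted p = 0.0305). Slc36a1 (-0.29 ± 0.18), which exports amino acids from lysosomes, Slc36a2 (-0.03 ± 0.10) and Slc36a3 (0.12 ± 0.08) did not pass.

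Slc43a2, a facilitative carrier of branched-chain amino acids, phenylalanine and methionine, stood at -0.20, -0.56, -0.18, -0.01 and -0.75 in HFD replicates 1 to 5, against 0.01, 0.02, 0.01 and 0.07 in control replicates 1 to 4. The control arrays were nearly equal and the HFD arrays spread below them, with a difference of -0.37 ± 0.14 (adjusted p = 0.187). Its other probe set differed by 0.01. Slc43a1, a related carrier abundant in liver, differed by 0.11 ± 0.13. Slc43a3, whose product is known as a carrier of purine nucleobases and not of amino acids, differed by -0.49 ± 0.23 (adjusted p = 0.269). Its values were -0.11, -0.95, -0.17, 0.49 and -0.21 in HFD replicates 1 to 5, against 0.35, 0.38, 0.37 and 0.11 in control replicates 1 to 4. The endothelial marker mean stood at -0.06, -1.09, -0.67, 0.27 and -1.21 in HFD replicates 1 to 5 and at 0.65, 0.72, 0.35 and 0.16 in control replicates 1 to 4. Both were highest among HFD arrays on replicate 4, but the lowest HFD array was replicate 2 for Slc43a3 and replicate 5 for the marker mean. The part of endothelial cells in these values was not tested.

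In all, HFD and control arrays were fully separated in 6 members, Slc3a1, Slc7a7, Slc38a7, Slc7a8, Slc6a9 and Slc43a2, which is 10.5% beside 9.82% of all genes. The within-group spread of the members was also near that of the array, with a median SD of 0.170 in HFD and 0.137 in control. For the 26 members with several probe sets the probe sets shared a sign in 10 and had mixed signs in 16, and the only probe set of these past the threshold was that of Slc7a7.

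**Figure D4:**
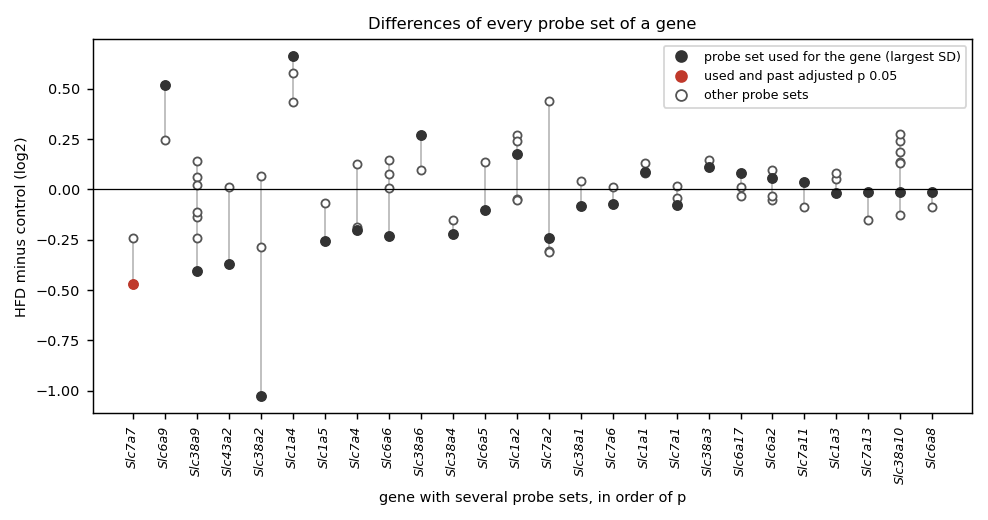
Difference HFD minus control (log2, vertical axis) of every probe set of the 26 transporter genes that have several, in order of the p of the probe set used (filled points, the one with the largest SD over all arrays). Slc7a7 is lower and Slc1a4 and Slc6a9 are higher on all their probe sets, whereas Slc38a2 runs between -1.03 and 0.06.

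Genes that act beside the transporters were described from lists. Of 8 amino acid transporters or partners outside the 7 families none passed in limma, 1 had an unadjusted p under 0.05 (Slc17a6, a vesicular glutamate transporter, -0.27 ± 0.10), and Slc15a4, a lysosomal carrier of histidine and peptides, differed by 0.41 ± 0.19. Of 23 genes of the ATF4 pathway and the response to amino acid deprivation 1 rose and 1 fell, which is 8.7% beside 5.24% of all genes, and 5 were higher and 5 lower at an unadjusted p under 0.05, together 43.5% beside 19.1%. Atf5, a transcription factor of this response, rose by 0.75 ± 0.12 (adjusted p = 0.00851). Asns, the asparagine synthetase, fell by 1.11 ± 0.24 (adjusted p = 0.0258), and stood at -0.06, -0.15, -0.10, -0.44 and -0.40 in HFD replicates 1 to 5, against 0.34, 0.41, 1.16 and 1.61 in control replicates 1 to 4. Vldlr (0.96 ± 0.28, adjusted p = 0.0769 in limma) and Nupr1 (0.62 ± 0.18, adjusted p = 0.0782) were higher and did not pass. The arrays of 4 of the 23 genes did not overlap (17.4%, beside 9.82% of all genes). These were Atf5, Vldlr and Nupr1, which were higher, and Asns, which was lower. Ddit3 (0.77 ± 0.25) and Trib3 (0.48 ± 0.20), other ATF4 targets, did not pass. Psph (-0.57 ± 0.17) and Phgdh (-0.33 ± 0.14) of serine synthesis and Cth (-0.49 ± 0.19), which makes cysteine, did not pass either. The same held for Eif2ak4 (-0.35 ± 0.14). The mean of the list stood at -0.36, -0.14, 0.23, 0.20 and 0.32 in HFD replicates 1 to 5 and between -0.15 and 0.12 in control. On HFD replicate 1 the mean was set mostly by Atf3 (-3.98), Ddit4 (-2.29) and Cebpb (-1.62). Without these 3 genes, left out after their values were seen, the mean of the other 20 stood at -0.02, -0.12, 0.19, 0.09 and 0.20 in HFD replicates 1 to 5 and between -0.06 and 0.13 in control.

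Of 29 measured genes of mTORC1 and its amino acid sensing 4 rose and none fell, which is 13.8% beside the 3.37% of all genes called higher. At an unadjusted p under 0.05, 5 were higher and 2 lower, together 24.1% beside 19.1% of all genes. By sign 15 were higher and 14 lower, with a median difference of 0.01. Sesn3, a sestrin that restrains mTORC1, rose by 1.53 ± 0.18 (adjusted p = 0.00161). It stood at 0.31, 0.77, 0.98, 0.75 and 1.04 in HFD replicates 1 to 5, against -1.08, -0.76, -0.31 and -0.89 in control replicates 1 to 4, without overlap. Fnip1, a partner of folliculin in the lysosomal arm of sensing, rose by 0.72 ± 0.12, Tsc1, a subunit of the complex that inhibits mTORC1, by 0.68 ± 0.14, and Castor2, a relative of an arginine sensor, by 0.56 ± 0.13. Each of these 4 genes had several probe sets, of which only the one with the largest SD was read. Sesn1, another sestrin, differed by -0.52 ± 0.20 and did not pass (adjusted p = 0.196).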

How the data were processed

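Liver RNA was hybridised to Affymetrix arrays. Per the series' design text and the submitters' processing notes, the authors used RMA and quantile normalization and then moved each probe set to its median over all samples. The deposited values were read as log2 differences from that baseline. The median over the 9 arrays was 0 in only 0.719% of probe sets (within 1e-06), so that the baseline is not that of these arrays alone, and which samples it covers was not settled. A shift of baseline moves all arrays of a probe set alike and leaves HFD minus control unchanged. The sources do not name the log base. Centring leaves no filter on low signal, and the number of arrays limits precision.

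Of 41782 probe sets kept after 60 control probe sets were left out, 32801 had 1 gene symbol, 862 several and 8119 none. The probe set with the largest SD over 9 arrays stood for each of 17514 genes, a choice that favours larger differences. HFD arrays were set against control arrays by a linear model with moderated variance (limma version 3.58.1 under R version 4.3.3). The p-values were two-sided and adjusted by Benjamini-Hochberg over all genes, with a threshold of 0.05. The fit was run on simulated data with independent noise for each gene and array. Such data do not cover the likeness between arrays seen here or the choice of probe set by SD. The members, lists and tests were chosen with earlier results of these data known. Values are given for members with an unadjusted p under 0.05, with arrays that do not overlap or with a known role in liver. Slc43a3, the other members named, and the list genes named that did not pass were added after their values were seen. Alternatives covered scaling, probe sets, filters, weights, moderation, thresholds and each array left out. Leaving out HFD replicates 3 and 5 together was added after seeing the data.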

Additional observations from a re-analysis of the deposited data

Results flagged for a closer look

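In 3 of the 42 groups of arrays examined, which were the HFD and the control arrays of 21 transporter genes, 1 array lay far from the rest of its group, with the gap to its neighbour above the critical value of Dixon's test for that group size. About 1 group in 20 is expected to do so by chance. Slc36a4 stood at 0.28 on HFD replicate 4 and between -0.19 and -0.08 on the other HFD arrays. Slc43a1 stood at 0.56 on HFD replicate 4 and between -0.09 and 0.06 on the other HFD arrays. Slc1a7 stood at -0.19 on HFD replicate 3 and between -0.05 and 0.00 on the other HFD arrays.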

How the results depend on the processing

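The lower call of Slc3a1 held in all 19 fits in which its difference was recomputed (-1.04 to -0.85). The single higher member, Slc38a7, was lost (0 members higher) after subtraction of array medians, without the 25% of genes of smallest SD, under robust eBayes, without moderation of the variance, at an adjusted p under 0.01, at 1.5-fold or more and without HFD replicates 3 and 5 together. Over the fits without 1 array the higher count was 0 to 1, and over all alternatives 2 to 3 members were higher and 5 to 11 lower at an unadjusted p under 0.05 (3 and 9 as reported). The lower count of 2 became 1 without moderation, at an adjusted p under 0.01, at 1.5-fold or more and without HFD replicates 3 and 5 together, and was 1 to 3 over the fits without 1 array. It was 3 under array weights (Slc38a2 added) and without HFD replicate 4 (Slc36a4 added). The number of genes called over the whole array (5.24%) became 366 without moderation, 245 at an adjusted p under 0.01, 596 at 1.5-fold or more and between 385 (without control replicate 2) and 996 (without HFD replicate 4) over the fits without 1 array. Fewer arrays or a stricter rule account for part of this by construction, and otherwise the cause was not tested. Among the 21 members recomputed, signs turned in 4 that were far from the threshold. With probe sets averaged Slc6a6 was at 0.00070 and Slc7a11 at -0.026. Over the fits without 1 array Slc7a11 ran between -0.024 (without HFD replicate 3) and 0.079, below 0 also without control replicate 3 (-0.013), and Slc43a1 between -0.0090 (without HFD replicate 4) and 0.15, while Slc38a3 was at -0.14 without HFD replicates 3 and 5 together. No paired analysis was possible because the labels give no pairing, and the replicate numbers used here only follow the order of the samples. The median over all genes shifted by less than 0.1 under every alternative.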
